A study of Mus musculus with 24 samples.

Results

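Immediate early transcription factors are 10 genes chosen by name: Fos, Fosb, Fosl1, Jun, Junb, Egr1, Egr2, Egr3, Ier2 and Nr4a1. Each had 1 probe on the array, and 9 of the 10 entered the tests, among 23503 genes in all. The RNA came from mouse aorta on 24 one-colour arrays, in 8 groups of 3 that the series calls biological replicates. Wild-type C57BL/6 mice and IL-17 Knockout mice of the same strain ate normal chow. They drank plain water or water with 1% NaCl, and were infused for 3 days with vehicle or with BAPN and angiotensin II. The controls had vehicle and plain water, and the salt groups had vehicle and 1% NaCl. The infused groups had BAPN and angiotensin II, with plain water or with 1% NaCl. BAPN blocks lysyl oxidase, the enzyme family that cross-links collagen and elastin, and angiotensin II constricts vessels and raises blood pressure. The study's title concerns salt, IL-17 and aortic dissection. The labels give no age, sex or IL-17 allele, and the extraction protocol speaks of cells where the sample labels say aorta.

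Immediate early genes are transcribed within minutes of a stimulus such as a growth factor, stretch or injury, without new protein synthesis, and most of their transcripts and proteins are short-lived. Fos and Jun family proteins pair through leucine zippers to form AP-1, which binds promoters of protease, cytokine and cell cycle genes. EGR proteins bind GC-rich sites through zinc fingers, and in the vessel wall EGR1 is known for its induction by injury and shear. The labels give no time between death and RNA extraction.

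The promoter windows show which sequence letters tied to immediate early control lie near the starts. RefSeq windows on GRCm38.p6, 250 bases before to 50 bases after a start, were at hand for 6 members, in 10 windows of which 5 belong to Egr2. Fosl1, Egr1, Egr3 and Ier2 had no window and were not searched. A CArG box, the serum response factor motif, was searched on both strands, with the cAMP response element TGACGTCA, the AP-1 site (TGAGTCA or TGACTCA) and the EGR site (GCGTGGGCG or GCGGGGGCG). No 2 of these motifs overlapped in the members' windows. A member counts once if any of its windows matches, while the share of promoters counts each window, so the 2 are unlike measures. A CArG box was in windows of 1 of 6 members, Egr2, against 1.63% of 32851 promoters. An EGR site was in those of 2 of 6, Fosb and Nr4a1, against 3.47% of promoters. The cAMP response element and the AP-1 site were in 0 of 6, against 1.79% and 5.2% of promoters. Among them, 4 stretches that hold a match are shown, 250 bases each, 5′ to 3′ on the gene's strand, ending at the base before the start, with the match in capitals.
Egr2 (chr10:67537619-67537868, plus strand): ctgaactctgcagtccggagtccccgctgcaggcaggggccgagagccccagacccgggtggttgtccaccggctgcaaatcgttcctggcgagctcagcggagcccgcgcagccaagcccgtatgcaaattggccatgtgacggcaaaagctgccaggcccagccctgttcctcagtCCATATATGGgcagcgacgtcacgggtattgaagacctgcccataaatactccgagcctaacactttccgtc
Egr2, an upstream start (chr10:67537316-67537565, plus strand): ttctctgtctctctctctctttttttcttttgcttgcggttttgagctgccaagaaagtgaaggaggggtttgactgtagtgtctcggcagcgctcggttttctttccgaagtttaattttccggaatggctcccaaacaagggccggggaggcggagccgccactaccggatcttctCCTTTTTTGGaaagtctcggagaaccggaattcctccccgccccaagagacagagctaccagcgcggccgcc
Fosb (chr7:19310046-19310295, minus strand): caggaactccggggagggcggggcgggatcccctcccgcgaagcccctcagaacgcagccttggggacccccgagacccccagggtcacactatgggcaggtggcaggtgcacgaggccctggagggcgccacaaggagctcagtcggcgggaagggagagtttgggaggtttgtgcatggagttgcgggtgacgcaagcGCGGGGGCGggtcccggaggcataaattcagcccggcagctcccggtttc
Nr4a1 (chr15:101266596-101266845, plus strand): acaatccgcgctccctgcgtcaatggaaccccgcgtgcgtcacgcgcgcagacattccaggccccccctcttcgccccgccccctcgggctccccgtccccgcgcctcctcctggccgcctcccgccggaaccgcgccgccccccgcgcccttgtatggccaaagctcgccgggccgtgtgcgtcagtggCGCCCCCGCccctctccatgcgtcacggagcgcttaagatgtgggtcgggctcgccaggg
The boxes of the other 2 Egr2 windows with a match are the one of the first stretch, seen from starts close by. In each Egr2 stretch the CArG box lies 63 to 72 bases before the start, and the EGR site of Fosb 42 to 50 bases before it. The EGR site of Nr4a1 reads on the opposite strand, 52 to 60 bases before the start. A match describes letters only.

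Signals are given as log2 of the processed signal minus each array's 75th percentile of it, so that 0 is the level of that percentile. Levels are compared between arrays for 1 gene and never between genes. The 75th percentile lay between 270 and 772 signal units on the 24 arrays, 49.8% to 60% of probes were well above background, and no probe of these 10 genes was saturated. The arrays lay on 4 slides and no slide held both genotypes, so slide and genotype cannot be told apart. The 8 smooth muscle markers were well above background on all 24 arrays. The probes of Il17a and Il17f were well above background on 0 of 24, so they do not check the genotype labels.

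In the fit of all arrays without a slide term, infusion of BAPN and angiotensin II went with more Fosl1 transcript in all 4 comparisons. The rise ran from at least 4.32-fold to a fitted 11.3-fold, and for the latter 1 of 3 control arrays was well above background. With another background correction (normexp) Fosl1 was not called in the wild type on plain water. There and in the knockout on salt infusion coincided with slide, and with slide as a fixed block the Fosl1 change fell to 0.24 and 0.31. Egr2 rose in both genotypes on plain water and Junb in the knockout on plain water. In the fit of all arrays without a slide term, Fos, Fosb, Jun, Egr1, Ier2 and Nr4a1 passed the threshold in none of the 4 comparisons. A gene counts as called where the limma p, adjusted over all 23503 genes by Benjamini-Hochberg, is under 0.05. In the wild type on plain water 2 of 9 members were called, both higher, where 25.9% of all genes were called and 12.2% were higher. The knockout on plain water had 3 of 9, again all higher, against 30.6% of all genes and 14.3% higher. On salt the wild type had 1 of 9, against 32.9% and 16.3% higher, and the knockout had 1 of 9, against 25.3% and 13.3% higher. In this fit of all groups the shares of members are near or below those of all genes called, so these counts by themselves set the group apart from no other genes. A fit of only the groups compared called 6 of 9 members in the knockout on salt, against 32.1% of all genes. In that comparison 3 of 9 members were higher in mean with infusion, Fosl1, Egr2 and Junb. Members lower with infusion were thus among the calls of that fit. The infused arrays there lay on slide 2 and the uninfused ones on slide 1. The median change of the 9 members was -0.18 in the wild type and 0.26 in the knockout on plain water, and 0.51 and -0.47 on salt. The median of all genes lay between -0.05 and -0.02 in the same comparisons. In whole tissue, fewer cells that express a gene and less transcript per cell cannot be told apart.

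**Figure D1:**
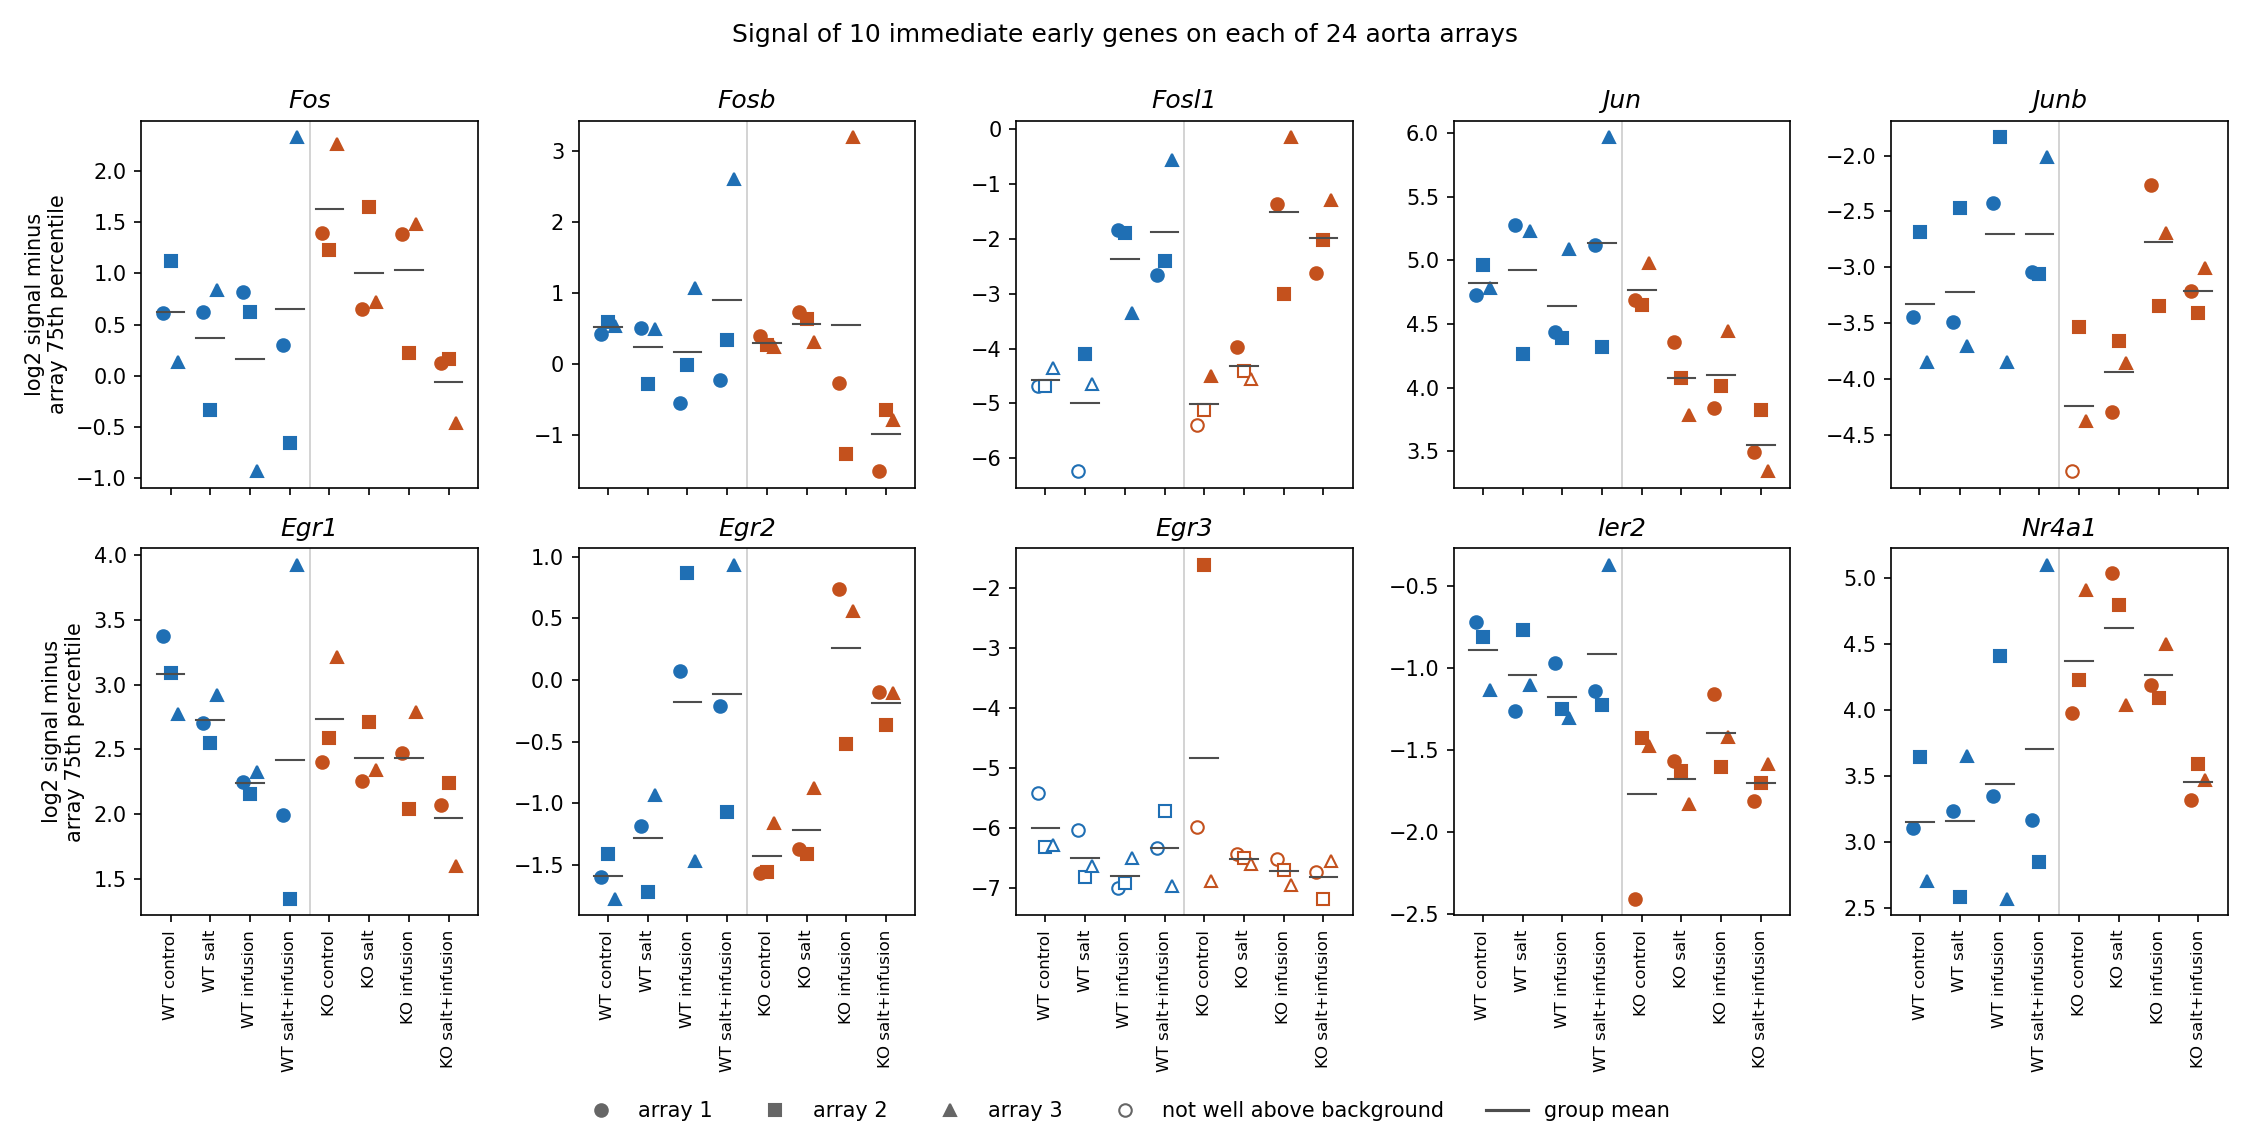
Signal of the 10 genes on each array (log2, relative to the array's 75th percentile), by group: blue wild type (WT), orange knockout (KO), 1 symbol shape per array number, open where not well above background, lines for group means. Fosl1 is at or above -3.36 on each of the 12 infused arrays and at or below -3.97 on the 12 others, while Egr3 is filled on 1 array.

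Fosl1 encodes FRA-1, an AP-1 partner that lacks the strong activation domain of FOS and builds up later after a stimulus. Its probe, on mm9, lies at chr19:5455496-5455555. In the wild type without infusion Fosl1 read -4.68, -4.69 and -4.36 on the 3 control arrays and -6.23, -4.10 and -4.64 on the 3 salt arrays. With infusion it read -1.83, -1.89 and -3.36 on plain water and -2.67, -2.41 and -0.57 on salt. Every infused wild-type array was above every uninfused one. In the knockout Fosl1 read -5.40, -5.12 and -4.49 on the control arrays and -3.97, -4.42 and -4.56 on the salt arrays. With infusion it read -1.37, -3.00 and -0.15 on plain water and -2.63, -2.02 and -1.29 on salt. Here too the 6 infused arrays stood above the 6 others, with array 2 of the infused knockout on plain water lowest among them. The probe was well above background on 15 of 24 arrays: all 12 infused arrays, none of the 3 wild-type controls, and 1 of 3 in each of the other uninfused groups. Fosl1 thus passed the filter on dim probes only through the infused groups, where it is high. Without that filter its adjusted p lay between 0.00184 and 0.0334 in the 4 comparisons.

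In the knockout on plain water the Fosl1 change was 3.50 (SE 0.67, 11.3-fold, adjusted p 0.00102 by limma), and in the wild type on salt it was 3.11 (SE 0.67, 8.63-fold, adjusted p 0.00227). The knockout on salt had 2.34 (SE 0.67, 5.06-fold, adjusted p 0.0161). Fosl1 in the wild type on plain water was at least 4.32-fold higher (adjusted p 0.021), a bound because no control array measured it. The folds in the other comparisons rest on 1 control or salt array above background. The size changed with the background correction. With normexp the Fosl1 changes of the first 3 comparisons were 1.50, 1.12 and 0.97 (adjusted p 0.00425, 0.0273 and 0.0495), and that of the wild type on plain water was 0.68 (adjusted p 0.189). Leaving out control array 1 or 2 or infused array 1 or 2 of the wild type on plain water gave fitted Fosl1 changes of 1.95 to 2.16 with adjusted p of 0.0588 to 0.0968. In the knockout on salt, the adjusted p was 0.0522 without salt array 3 and 0.0763 without infused array 3.

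Slide bears on the Fosl1 values in all 4 comparisons, through all infused arrays in 2 of them and through infused array 3 in the other 2. In the wild type on plain water and in the knockout on salt, the infused arrays were on another slide than the uninfused ones. With slide as a fixed block the Fosl1 change there fell to 0.24 (adjusted p 0.922) and 0.31 (adjusted p 0.821), and with slide as a random block it was 1.12 (adjusted p 0.512) and 1.21 (adjusted p 0.304). That slide term is set by 1 group per genotype that spans slides: 2 arrays against array 3 of the salt-drinking infused wild type, and 2 against array 3 of the infused knockout on plain water. Those are the arrays on which Fosl1 read highest, -0.57 and -0.15. In the other 2 comparisons the same arrays could be left out on 1 slide: within slide 1 the Fosl1 change in the knockout on plain water was 2.82 (adjusted p 0.00377), and within slide 3 that in the wild type on salt was 2.45 (adjusted p 0.0161).

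**Figure D2:**
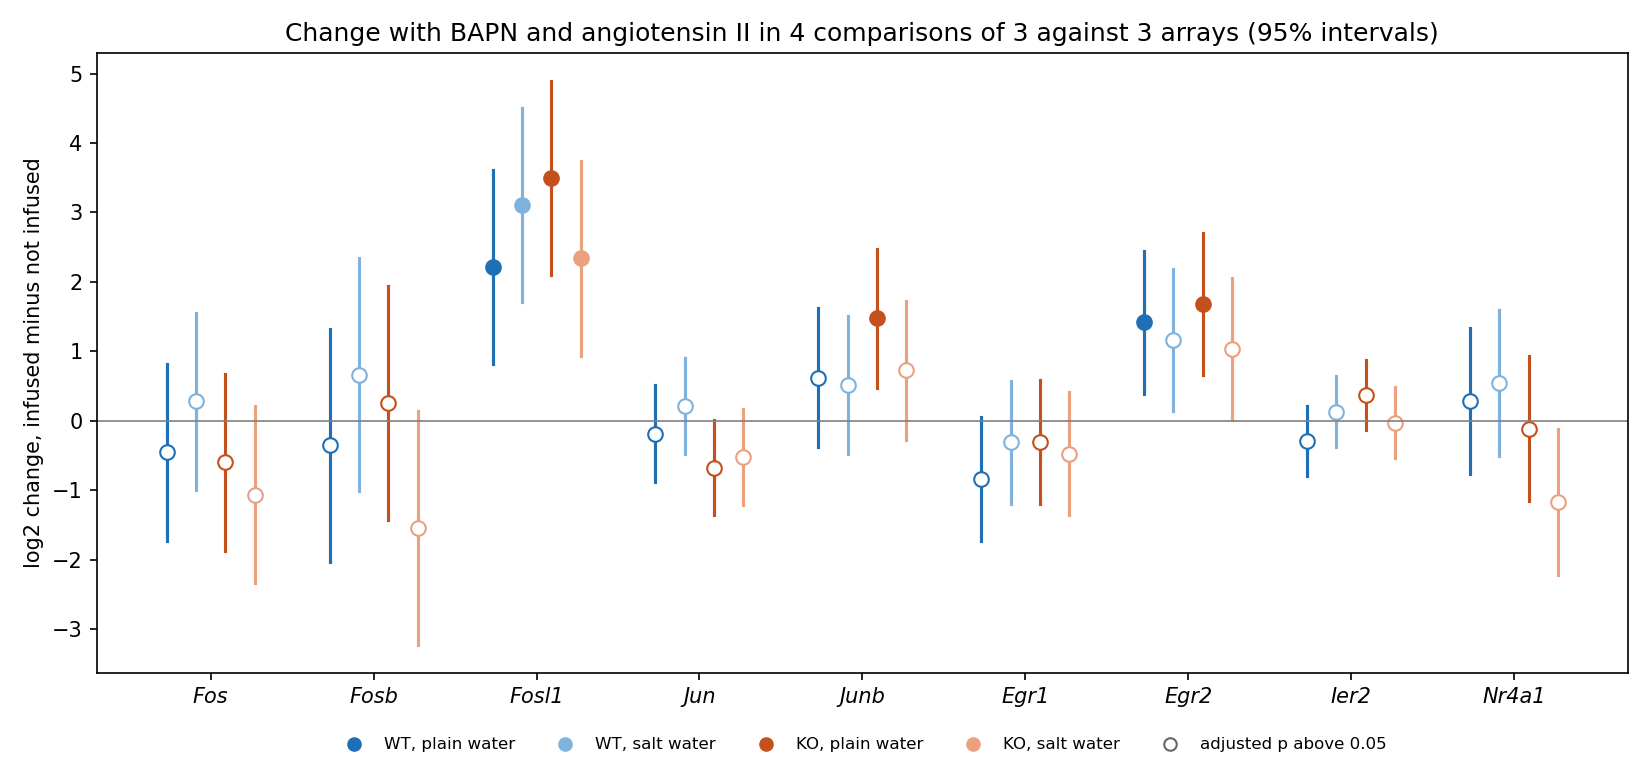
Change with infusion of 9 members (log2, infused minus not infused, bars are 95% intervals, 3 against 3 arrays), in the wild type (WT) and the knockout (KO) on plain and salt water; filled points have an adjusted p under 0.05. Fosl1 is filled in all 4 comparisons, Egr2 in 2 and Junb in 1; the Fosl1 point of the wild type on plain water is fitted against controls not well above background.

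Fos and Fosb, the founding partners of JUN in AP-1, showed no call with infusion among all arrays without a slide term. Wild-type Fos read 0.61, 1.12 and 0.13 on control arrays, 0.62, -0.34 and 0.84 on salt, 0.82, 0.62 and -0.93 with infusion and 0.30, -0.66 and 2.33 with salt and infusion. Knockout Fos read 1.39, 1.23 and 2.26 on control arrays, 0.65, 1.65 and 0.72 on salt, 1.39, 0.23 and 1.49 with infusion and 0.12, 0.17 and -0.46 with both. The wild-type groups overlapped throughout, and the array that stood highest, at 2.33, shared its group with one at -0.66. In the knockout on salt, the 3 infused Fos values all lay below the 3 uninfused ones, with a change of -1.06 (SE 0.61, adjusted p 0.211 by limma). The Fos change was -0.45 and 0.28 in the wild type on plain water and on salt, and -0.59 in the knockout on plain water.

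Fosb, with its probe at chr7:19888168-19888227 on mm9, spread the most of the members within groups. The residual SD of Fosb was 1.05, at percentile 99.2 of all genes, whose median was 0.26. Wild-type Fosb read 0.42, 0.59 and 0.54 on control arrays, 0.51, -0.29 and 0.50 on salt, -0.56, -0.02 and 1.06 with infusion and -0.22, 0.34 and 2.60 with both. In the knockout it read 0.39, 0.26 and 0.24 on control arrays, 0.74, 0.63 and 0.31 on salt, -0.26, -1.26 and 3.19 with infusion and -1.51, -0.65 and -0.78 with both. The 12 uninfused arrays lay within -0.29 and 0.74, while the infused ones ran from -1.51 to 3.19. The 2 highest were array 3 of the infused knockout on plain water and array 3 of the salt-drinking infused wild type. In the knockout on salt the infused Fosb values lay below all uninfused ones (-1.54, SE 0.80, adjusted p 0.167). On plain water the Fosb change in the knockout was 0.26 with array 3 and -1.06 without it, where the infused arrays left were on the slide of the controls (adjusted p 0.0209 within slide 1, 0.163 among all groups). Fosb was called lower with slide as a fixed block in the wild type on plain water (-2.90, adjusted p 0.0392), in the knockout on plain water (-1.06, adjusted p 0.0398) and in the knockout on salt (-5.49, adjusted p 1.67e-05). That block rests on those 2 highest arrays.

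Jun, the main AP-1 partner of FOS proteins, was called with infusion in none of the 4 comparisons among all arrays without a slide term. Wild-type Jun read 4.73, 4.96 and 4.78 on control arrays, 5.28, 4.26 and 5.23 on salt, 4.44, 4.39 and 5.09 with infusion and 5.12, 4.32 and 5.97 with salt and infusion. Knockout Jun read 4.69, 4.65 and 4.98 on control arrays, 4.36, 4.07 and 3.78 on salt, 3.84, 4.01 and 4.45 with infusion and 3.49, 3.82 and 3.34 with both. The knockout controls were higher than the 9 other knockout arrays, and the wild-type groups overlapped. The Jun changes with infusion were -0.18 and 0.21 in the wild type, and -0.67 (adjusted p 0.135 by limma) and -0.52 in the knockout, on plain and salt water. Within slide 1 the change of Jun in the knockout on plain water was -0.85 (adjusted p 0.0106).

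Junb, a JUN relative that often holds AP-1 activity down, was called in 1 comparison. In the knockout Junb read -4.83, -3.54 and -4.38 on control arrays and -2.27, -3.35 and -2.69 with infusion, and the infused arrays were all higher. The change was 1.48 (SE 0.48, 2.79-fold, adjusted p 0.0248 by limma), and within slide 1 it was 1.44 (adjusted p 0.0376). On salt the knockout read -4.30, -3.66 and -3.86 without and -3.22, -3.41 and -3.00 with infusion, again with no overlap (0.73, adjusted p 0.276). Wild-type Junb read -3.44, -2.68 and -3.85 on control arrays, -3.49, -2.47 and -3.70 on salt, -2.43, -1.84 and -3.85 with infusion and -3.04, -3.06 and -2.01 with both, and these groups overlapped. The wild-type Junb changes were 0.62 and 0.51. Control array 1 of the knockout was not well above background for Junb, and without it the knockout change was 1.19 (adjusted p 0.11). It was 1.41 (adjusted p 0.0686) without control array 3 and 1.23 (adjusted p 0.122) without infused array 1. With normexp it was 0.56 (adjusted p 0.0393).

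Egr2, a zinc finger factor of the EGR family, was higher on most infused arrays. Its probe lies at chr10:67004798-67004857 on mm9. Egr2 in the wild type read -1.60, -1.41 and -1.77 on control arrays and 0.07, 0.87 and -1.47 with infusion, and infused array 3 fell among the controls. On salt it read -1.19, -1.72 and -0.94 without and -0.21, -1.07 and 0.94 with infusion. In the knockout Egr2 read -1.56, -1.56 and -1.16 on control arrays and 0.74, -0.52 and 0.56 with infusion, and -1.37, -1.42 and -0.88 on salt and -0.10, -0.36 and -0.10 with both. The infused knockout arrays were all above the uninfused ones, while in the wild type the groups overlapped on either water.

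The Egr2 change was 1.69 (SE 0.49, 3.22-fold, adjusted p 0.0142 by limma) in the knockout and 1.42 (SE 0.49, 2.67-fold, adjusted p 0.0399) in the wild type on plain water. On salt it was 1.17 (adjusted p 0.0731) in the wild type and 1.03 (adjusted p 0.129) in the knockout. The wild-type call on plain water for Egr2 was lost on leaving out any 1 of its 6 arrays but infused array 3, with changes of 0.90 to 1.51 and adjusted p of 0.069 to 0.249. With slide as a fixed block that change was -0.16 (adjusted p 0.94). The knockout call on plain water was lost without infused array 1 (1.45, adjusted p 0.0772) and was kept within slide 1 (1.54, adjusted p 0.014). Egr2 in the wild type on salt was called without infused array 2 (1.65, adjusted p 0.0181), and its change was 0.64 (adjusted p 0.366) without infused array 3.

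Egr1, the best-known vessel wall member of the EGR family, was lower in mean with infusion in all 4 comparisons. None passed the threshold in the fit of all 24 arrays without a slide term. Egr1 in the wild type read 3.38, 3.09 and 2.77 on control arrays and 2.25, 2.15 and 2.32 with infusion, with no overlap (-0.84, SE 0.42, adjusted p 0.154 by limma). On salt it read 2.70, 2.55 and 2.92 without and 1.99, 1.35 and 3.93 with infusion. Infused array 3 on salt was the highest Egr1 value of all 24 arrays and its 2 partners were among the 4 lowest. Without that array the wild-type change on salt was -1.05 (adjusted p 0.0141), and with it -0.30 (adjusted p 0.605). Egr1 was called lower with slide as a fixed block in the wild type on plain water (-3.10, adjusted p 0.00508) and on salt (-1.05, adjusted p 0.00915). That block rests on the same array. In the knockout Egr1 read 2.40, 2.59 and 3.21 on control arrays, 2.26, 2.71 and 2.34 on salt, 2.47, 2.04 and 2.79 with infusion and 2.07, 2.24 and 1.60 with both. The knockout changes were -0.30 on plain water and -0.47 on salt, where the infused values lay below the uninfused ones. The probe of Egr3, the remaining EGR gene, was well above background on 1 of 24 arrays, control array 2 of the knockout at -1.61, and the other 23 lay between -7.18 and -5.42. Egr3 entered no test.

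Nr4a1 is an orphan nuclear receptor induced by stretch and cytokines, and Ier2 a nuclear protein with no DNA-binding domain of these families. Neither was called with infusion in the fit of all arrays without a slide term. Wild-type Nr4a1 read 3.10, 3.64 and 2.70 on control arrays, 3.23, 2.58 and 3.65 on salt, 3.34, 4.40 and 2.57 with infusion and 3.16, 2.85 and 5.10 with salt and infusion. Knockout Nr4a1 read 3.98, 4.23 and 4.91 on control arrays, 5.04, 4.80 and 4.04 on salt, 4.19, 4.09 and 4.50 with infusion and 3.31, 3.59 and 3.47 with both. The knockout with salt and infusion was lowest of the 4 knockout groups and overlapped none of them (-1.17 against salt alone, SE 0.50, adjusted p 0.0942 by limma). The Nr4a1 changes were 0.29 and 0.55 in the wild type and -0.11 in the knockout on plain water.

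Ier2 was the steadiest member within groups, with a residual SD of 0.31 at percentile 60 of all genes. Wild-type Ier2 read -0.72, -0.81 and -1.14 on control arrays, -1.26, -0.77 and -1.10 on salt, -0.97, -1.25 and -1.30 with infusion and -1.14, -1.22 and -0.37 with both. Knockout Ier2 read -2.40, -1.42 and -1.47 on control arrays, -1.57, -1.63 and -1.83 on salt, -1.16, -1.60 and -1.42 with infusion and -1.81, -1.70 and -1.59 with both. The 4 infusion changes of Ier2 lay between -0.29 and 0.37, and the infused and uninfused groups overlapped in each.

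**Figure D3:**
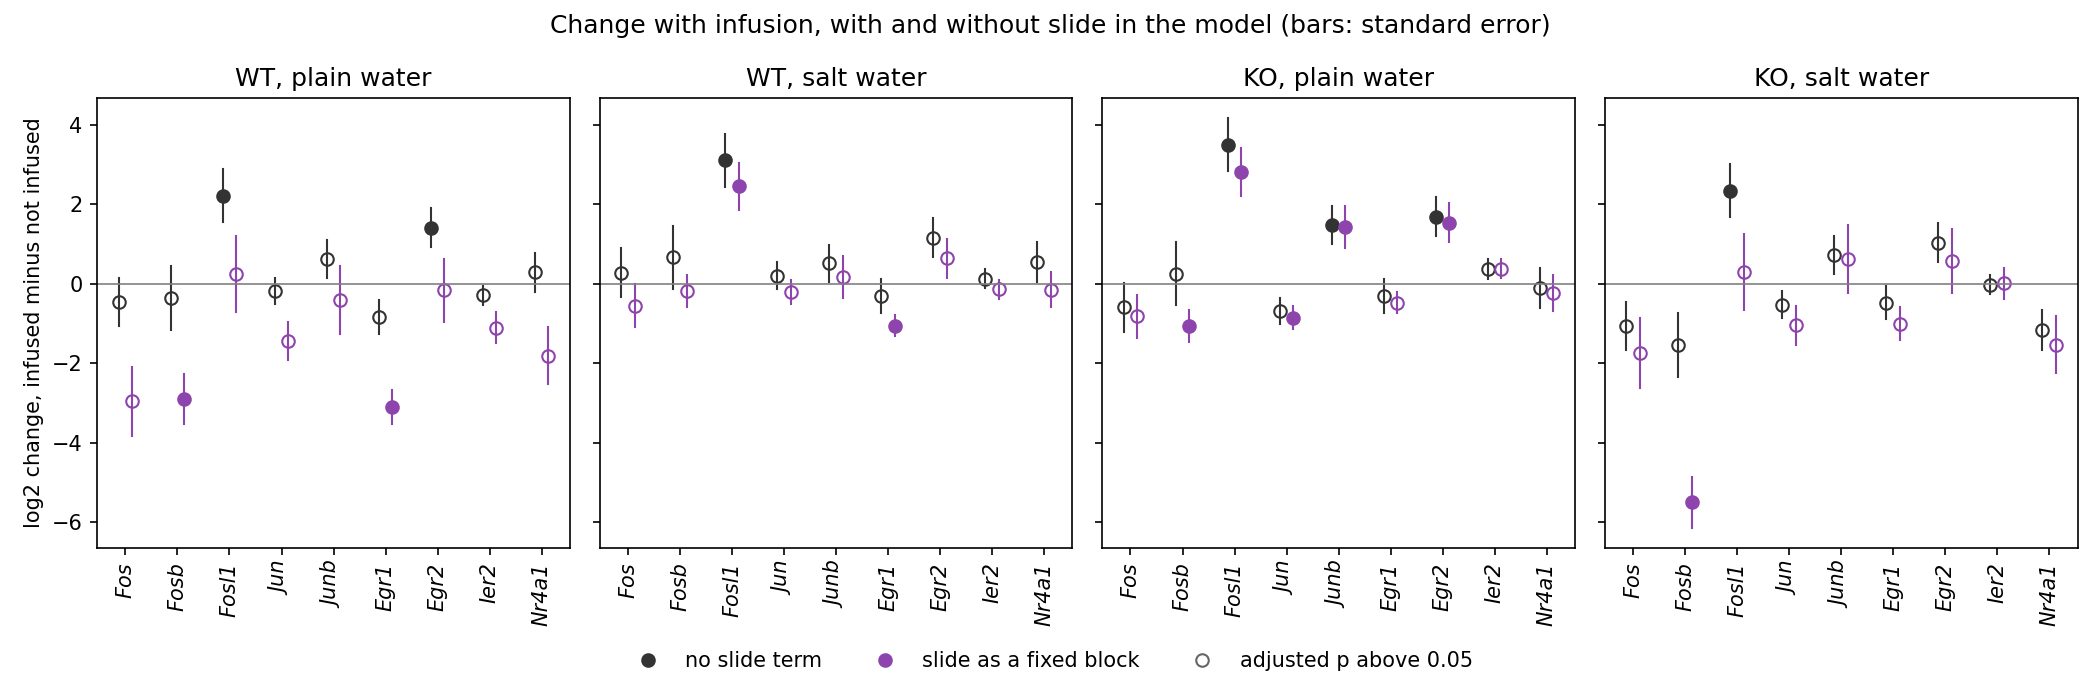
Change with infusion (log2, infused minus not infused, bars are standard errors) without a slide term (black) and with slide as a fixed block (purple) in the wild type (WT) and the knockout (KO); filled points have an adjusted p under 0.05. In the wild type on plain water and the knockout on salt, where infused and uninfused arrays lay on different slides, Fosl1 drops to 0.24 and 0.31.

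In the 2 comparisons that a slide holds in part, the members called within it were more than in the whole. Within slide 1 infusion in the knockout on plain water gave 5 of 9 members, where 43.3% of all genes were called: Fosl1, Egr2 and Junb higher, and Fosb and Jun lower. Within slide 3 infusion in the wild type on salt gave 2 of 9, where 28.8% of all genes were called, Fosl1 higher and Egr1 lower (-1.05, adjusted p 0.0182 by limma). Groups of members with no overlap numbered 2 of 9 in the wild type on plain water, 4 in the knockout on plain water, 1 in the wild type on salt and 7 in the knockout on salt. Across all genes, 34.9%, 37.7%, 54.6% and 50.9% did not overlap in those comparisons, where 25.9%, 30.6%, 32.9% and 25.3% were called among all groups. The fit with slide as a fixed block called 2 of 9 members in the wild type on plain water, Egr1 and Fosb, both lower, against 1.11% of all genes, and 1 of 9 in the knockout on salt, Fosb, again lower, against 36.6%.

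On some arrays most members deviated from the group mean in 1 direction, and on others they were split. Array 3 of the salt-drinking infused wild type was the highest of its 3 for 9 of 9 members, 0.54 to 1.70 above the group mean with a median of 1.31, while all genes had a median of 0.04. Array 2 of that group was the lowest for 7 of 9. Array 2 of the infused knockout on plain water was the lowest of its group for 8 of 9 members, and array 3 the highest for 6. Infused array 3 of the wild type on plain water was the lowest for 6 and the highest for the other 3, Fosb, Jun and Egr1. Salt array 2 of the wild type was likewise the lowest for 6 and the highest for 3, and salt array 1 of the knockout the highest for 5 and the lowest for 3. The median member deviation lay between -0.33 and 0.30 on the 6 control arrays, and between -0.06 and 0.13 on the 3 arrays of the salt-drinking infused knockout. For the array at 1.31, marker sums were 2218 for smooth muscle against 2395 and 2591 on its partners, and 206 for macrophages against 230 and 207. On that array they were also 10.1 against 18.9 and 26.4 for fat, and 2.50 against 4.69 and 6.20 for mesothelium. On array 3 of the infused knockout the sums were 2030 against 1363 and 1380 for smooth muscle, and 156 against 214 and 225 for macrophages. There they were also 69.1 against 35.8 and 38.0 for skeletal muscle, and 82 against 133 and 160 for endothelium. Both arrays were the only ones of their groups on their slides, so array and slide cannot be told apart. The part of tissue makeup in these deviations was not tested. For 8 of the 9 members the residual SD was at or above percentile 76.5 of all genes.

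**Figure D4:**
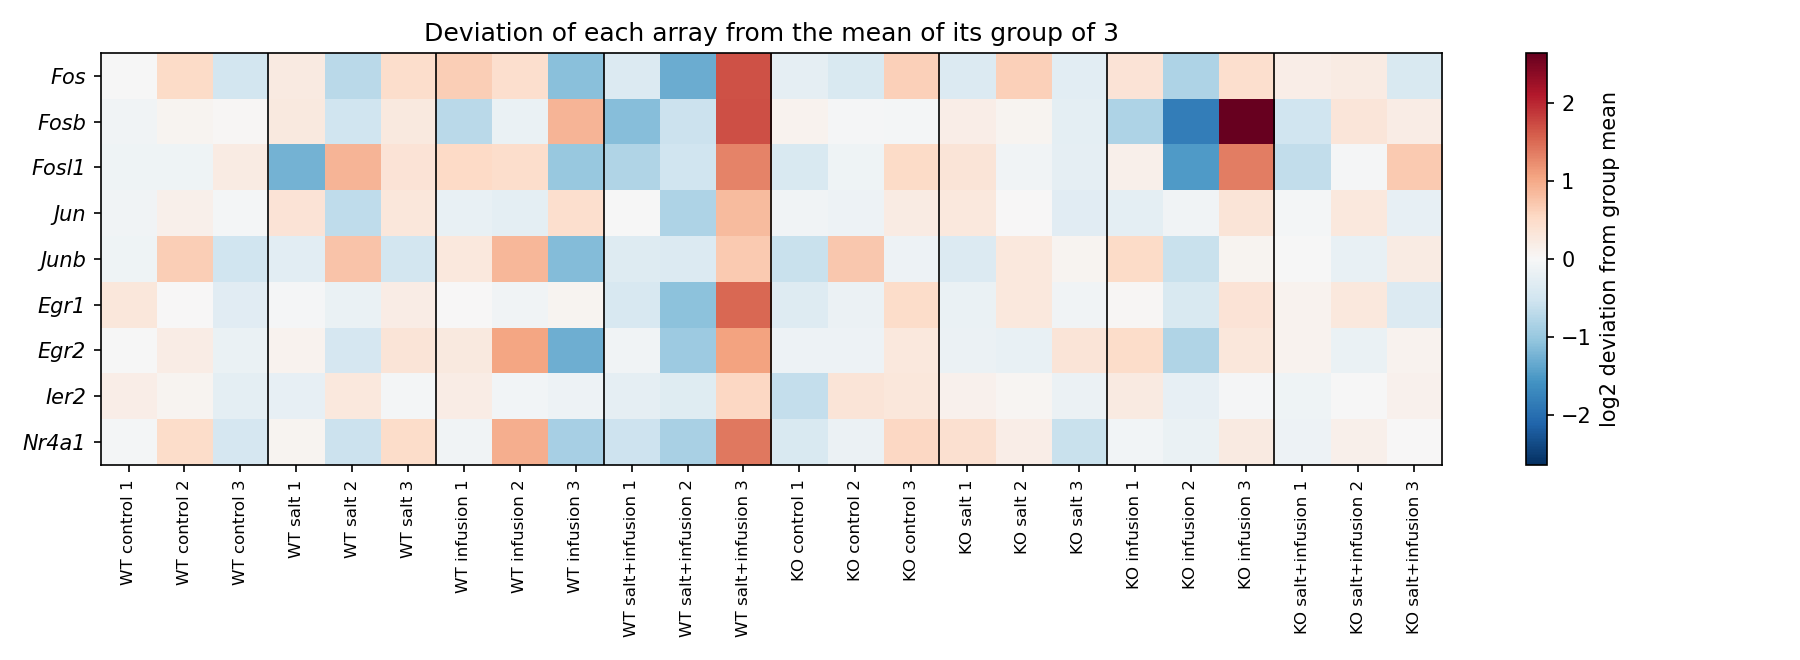
Deviation of each array from the mean of its group of 3 (log2, red above, blue below) for 9 members over 24 arrays, wild type (WT) left and knockout (KO) right. The column of array 3 of the salt-drinking infused wild type is red for all 9 members, between 0.54 and 1.70, and that of array 2 of the infused knockout is blue for all 9.

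The genes most like the members over the 24 arrays were sought among 14653 named genes, as a description, since all share the same arrays. Against the mean standardised log2 signal of the members, the highest Pearson r were those of Ets1 (0.80), Nr4a2 (0.74), Zfp36 (0.70), Arc (0.70), Csrnp1 (0.69), Nfkbiz (0.68), Btg2 (0.67) and Bcr (0.67). The members' own r with that mean, of which each is a part, ran from 0.48 for Fosl1 to 0.67 for Fos. For deviations from group means the highest r were those of Btg2 (0.91), Errfi1 (0.87), Phc2 (0.86), Pde4b (0.85), Cyb5b (0.83), Nfil3 (0.82), Ets1 (0.82) and Rbm33 (0.81). Fos (0.89), Egr1 (0.87) and Nr4a1 (0.87) had the highest among the members and Jun (0.58) the lowest. Nr4a2, Zfp36, Arc, Csrnp1, Nfkbiz, Btg2 and Nfil3 are themselves known as early response genes.

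Salt alone moved no member past the threshold. Of the 9, 0 were called in the wild type, 0 of 9 had an unadjusted limma p under 0.05, and 0% of all genes were called. In the knockout 0 of 9 were called, with 1 of 9 at an unadjusted p under 0.05, and again 0% of all genes. That 1 was Jun, at -0.70 (SE 0.33), whose 3 salt arrays lay below the 3 controls. During infusion salt gave 0 of 9 in the wild type, with 0 at an unadjusted p under 0.05, against 0% of all genes. In the knockout it gave 0 of 9, with 0 at an unadjusted p under 0.05, against 0.00425% of all genes. The direction of the means differed by genotype: 8 of 9 members were higher with salt in the infused wild type (median 0.26) and 0 of 9 in the infused knockout (median -0.47), with medians of all genes of -0.02 and 0.02. Most of these arrays differed in slide too. In the wild type all infused arrays on plain water lay on slide 4, and arrays 1 and 2 with salt and infusion on slide 3. In the knockout infused arrays 1 and 2 on plain water lay on slide 1, and all with salt and infusion on slide 2. Salt and slide can thus hardly be told apart here. The wild-type direction changed when single arrays were left out. Without array 3 of the salt-drinking infused group, its only one on slide 4, 1 of 9 members was higher (median -0.35). That left slide 3 against slide 4, so the part of the array and that of slide cannot be told apart. Without infused array 3 on plain water 4 of 9 members were higher (median -0.02). In the knockout, 0 or 1 of 9 were higher when any 1 array was left out. Mesothelial markers, of which all 6 were measured, had medians of 0.72 in the wild type and -1.76 in the knockout for the same comparisons, and 0 were called in either; the genotype difference had a median of -2.49, with 0 called. Their summed signal ran from 1.56 to 4.36 in the infused wild type and from 2.50 to 6.20 with salt, and from 9.80 to 15.3 and from 0.707 to 7.90 in the knockout. Of them Bnc1 was well above background on 14 of 24 arrays and Lrrn4 on 23. Their part in the members' values was not tested. In the infused knockout Fos (-1.09), Jun (-0.55) and Nr4a1 (-0.80) did not overlap between salt and plain water, which is 3 of 9 members against 6.93% of all genes.

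The test of that genotype difference of salt during infusion called 0 of 9 members (1 at an unadjusted limma p under 0.05, Jun at -1.04) against 0% of all genes. The genotype difference of the infusion change called 0 of 9 on plain water (0 at an unadjusted p under 0.05; 0% of all genes). On salt it called 0 of 9 (1 at an unadjusted p under 0.05; 0.0596% of all genes). That 1 was Nr4a1 (-1.72, SE 0.71, adjusted p 0.487). The difference that salt made to the infusion change called 0 of 9 in the wild type and 0 of 9 in the knockout, with 0 at an unadjusted p under 0.05 and 0% of all genes in each. For Fosl1 the genotype difference of the infusion change was -0.77 on salt, with a 95% interval from -2.75 to 1.21, and on plain water no value is given because the wild-type controls set only a bound. With slide as a fixed block, Egr1 was called in the genotype difference on plain water (2.62, adjusted p 0.0441; 0.196% of all genes) and Fosb in that on salt (-5.31, adjusted p 0.00168; 8.37% of all genes). These rest on the 2 groups that span slides.

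Between genotypes, Ier2 was lower in the knockout in 3 of 4 comparisons and Jun in 2, and Nr4a1 was higher in 1. In controls 1 of 9 members was called, Ier2, lower in the knockout, against 37.2% of all genes called and 22.7% lower. On salt 3 of 9 were called against 39.3%: Nr4a1 higher (15.8% of all genes were higher) and Ier2 and Jun lower (23.5% were lower). Under infusion on plain water 0 of 9 were called, 0 at an unadjusted limma p under 0.05, against 46.1% of all genes. With salt and infusion 2 of 9 were called, Ier2 and Jun, both lower, against 28.6% called and 18.1% lower. The members' share of calls was above that of all genes in none of the 4 comparisons. Since each genotype had its own slides, all of these differences are also differences between slides.

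The Ier2 difference, knockout minus wild type, was -0.88 in controls (SE 0.24, 1.84-fold lower, adjusted p 0.00831 by limma), -0.63 on salt (adjusted p 0.0456) and -0.79 when mice had salt as well as infusion (adjusted p 0.0212), and the groups did not overlap in these 3. Under infusion on plain water the difference was -0.22 and the groups overlapped. Control array 1 of the knockout, at -2.40, was the lowest of all, and without it the Ier2 difference was -0.56 (adjusted p 0.0624). Without array 3 of the salt-drinking infused wild type the last one was -0.52 (adjusted p 0.109), and without knockout array 1 there it was -0.73 (adjusted p 0.077). After quantile normalization Ier2 was -0.46 on salt (adjusted p 0.166) and -0.63 when infusion was added (adjusted p 0.0749).

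Jun differed by -1.58 with salt and infusion (SE 0.33, 3.00-fold, adjusted p 0.00172 by limma), and all 3 knockout values were below all 3 wild-type ones. Without array 3 of the wild type there, the Jun difference was -1.17 (adjusted p 0.00994). On salt alone Jun differed by -0.85 (adjusted p 0.0476) and the groups overlapped by array 2 of the wild type at 4.26. In controls it was -0.05. With normexp the difference of Jun on salt was -0.68 (adjusted p 0.0961). Nr4a1 was higher in the knockout on salt by 1.47 (SE 0.50, 2.77-fold, adjusted p 0.0262), with no overlap, and in controls by 1.22 (adjusted p 0.0628), again with no overlap. With salt and infusion the Nr4a1 difference was -0.25. On salt, the calls of Ier2, Jun and Nr4a1 were each lost when single arrays were left out. Ier2 was lost without any 1 array but wild-type array 1 (adjusted p 0.069 to 0.164), and Jun without any but wild-type array 2 (0.0505 to 0.169). Nr4a1 was lost without knockout array 1 or 2 or wild-type array 1 or 2 (0.0534 to 0.107). With slide as a random block the adjusted p of Jun with salt and infusion was 0.0207, and those of Ier2 in controls and Nr4a1 on salt were 0.0836 and 0.478. Fosl1, Egr2 and Junb were each called higher with infusion in at least 1 comparison. In the same fit of all arrays without a slide term, they were called between genotypes in none of the 4 comparisons.

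Other genes of the pathway moved to differing degrees with infusion. Counts are given for the wild type on plain water, the knockout on plain water, the wild type on salt and the knockout on salt in turn. Of all genes 12.2%, 14.3%, 16.3% and 13.3% were higher in these comparisons, and 13.7%, 16.4%, 16.6% and 12% were lower. The list genes were counted without a slide term, and in the first and last comparison infused and uninfused arrays lay on different slides. In the first, 25.9% of all genes were called without a slide term, 1.11% with slide as a fixed block and 3.27% with it as a random block. In the last these shares were 25.3%, 36.6% and 27.6%. Of 42 measured other immediate early genes, 4, 12, 10 and 6 rose and 3, 1, 1 and 4 fell, with medians of 0.28, 0.42, 0.36 and -0.06. Ptgs2, the inducible cyclooxygenase, rose 10.1-, 13.9-, 10.5- and 10.6-fold (adjusted p 0.00285, 0.000896, 0.00194 and 0.00244 by limma). Myc, a growth-promoting transcription factor, rose by 1.69, 2.05, 2.75 and 1.28, and Jund, an AP-1 subunit present at rest, fell by 0.76, 0.71 and 0.79 in 3 comparisons and differed by -0.34 (adjusted p 0.17) in the wild type on salt.

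Of 18 AP-1 and bZIP partners 4, 4, 4 and 2 rose and 3, 2, 3 and 5 fell. Batf, an AP-1 factor of immune cells, rose in all 4 comparisons, by 1.70, 1.54, 1.33 and 1.40. Atf2, a partner of JUN at cAMP response elements, fell by 0.58, 0.60, 0.55 and 0.62. Of 22 feedback inhibitors, which are phosphatases, Sprouty proteins and RNA-decay factors that end the response, 1, 2, 1 and 0 rose and 3, 3, 5 and 4 fell. Zfp36l1, an RNA-decay factor, fell by 0.80 and 0.93 on plain water, and Dusp10, a MAP kinase phosphatase, fell by 1.75 in the wild type on plain water and by 1.55 in the knockout on salt. Of 31 upstream kinases and promoter factors 5, 5, 6 and 3 rose and 6, 9, 5 and 6 fell. Srf, the factor that binds CArG boxes, fell by 1.19 in the wild type and by 0.91 in the knockout on plain water (adjusted p 0.00347 and 0.0134), and differed by -0.69 and -0.61 on salt (adjusted p 0.0505 and 0.0915).

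Of 26 genes with AP-1 or EGR sites described in vessel wall cells, 15, 15, 16 and 14 rose and 0, 1, 2 and 1 fell, with medians of 0.75, 0.76, 0.91 and 0.73. Timp1, a protease inhibitor, rose 14.1-, 12.9-, 12.4- and 12-fold, and Ccl2, a monocyte chemokine, 21.9-, 34.3-, 21.8- and 23.8-fold. Spp1, osteopontin, was at least 63.9-, 44.7- and 40.4-fold higher in the first 3 comparisons, bounds because no uninfused array there was well above background. Plau, the urokinase gene, rose 5.71-, 3.64-, 8.90- and 3.49-fold. Mmp9, a gelatinase, was at least 3.05- and 3.92-fold lower in the knockout on plain and salt water and at least 1.22-fold lower in the wild type on salt, where no infused array was well above background. This list was chosen with earlier results in view, and whether Fosl1 or Egr2 acted on these genes was not tested.

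Cell type markers moved with the same comparisons. Of 8 macrophage markers 7, 6, 6 and 5 rose with infusion and 0 fell, in the same order of comparisons, and all 8 were well above background on all 24 arrays. Their summed signal, as a multiple of the 75th percentile, ran from 165 to 215 in wild-type controls and from 229 to 259 with infusion, and from 125 to 140 and from 156 to 225 in the knockout. Of 8 fibroblast markers 4, 4, 5 and 6 fell and 1, 0, 1 and 0 rose. Of 8 smooth muscle markers 1, 3, 0 and 2 fell. Between genotypes the summed neutrophil markers ran from 69.7 to 118 on the 12 knockout arrays and from 196 to 284 on the 12 wild-type arrays, while 1, 2, 1 and 1 of 7 were called lower in controls, on salt, under infusion and with both. In that list S100a8 was well above background on 20 arrays, Cxcr2 on 5 and Retnlg on 7. In the same order 2, 2, 4 and 4 of 8 smooth muscle markers were lower in the knockout, and their sums did not overlap, at 1247 to 2034 in the knockout and 2049 to 2963 in the wild type. Of the fibroblast markers 3, 4, 4 and 3 of 8 were higher in the knockout and 0, 0, 1 and 1 lower. Of the 6 mesothelial markers 0, 1, 6 and 0 were higher in the knockout, with summed signals of 0.707 to 16.7 on knockout arrays and 1.56 to 10.2 on wild-type arrays. The part of these cell types in the Fosl1, Egr2, Junb, Ier2, Jun and Nr4a1 results was not tested.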

How the data were processed

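RNA of mouse aorta was hybridised to 24 one-colour arrays, 3 in each of 8 groups taken from the labels. The deposited scanner files hold spot intensities; per the file headers, Agilent Feature Extraction 10.7.1.1 made the processed signal, which is already background-subtracted, while the submitters' processing notes name version 9.5.1.1. The authors' deposited table of the same arrays holds linear intensities that matched a quantile normalization of these signals, and their log2 was used as an alternative. Control spots and 2910 outlier spots were left out, spots of a probe were averaged, and log2 of the signal minus each array's 75th percentile was taken. Probes had to be well above background on all 3 arrays of 1 group and to have values on 2 arrays of every group, which kept 33374 probes; the brightest probe stood for each of 23503 genes.

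All groups entered 1 fit with limma 3.58.1 (lmFit and eBayes, R 4.3.3), with Benjamini-Hochberg adjustment over all genes and a threshold of 0.05, for 12 comparisons and 5 tests of a difference between them. P-values measure the spread between the 3 arrays of a group, taken in that fit as 1 shared spread over all 8 groups. They thus also carry the spread of groups that were not compared. Alternatives were quantile normalization, normexp background (offset 50), the authors' values, other filters and probe rules, slide as a fixed or random block, single slides, a block for the replicate number, fits of the compared groups alone, and leaving out each array. The fit was tested on simulated data. Precision is limited by the number of arrays. Probe names came from RefSeq through accessions for 27235 probes, with the file's own name otherwise, and probe positions are those of the files on mm9. For the wild type on salt, array numbers follow the source names, since the titles count differently.

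The text names all members, up to 3 called genes of each of 5 lists with the smallest p in each infusion comparison (with their values in the other infusion comparisons), and the 8 most alike genes by each measure. The members and lists were chosen with earlier results of these data known.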

Additional observations from a re-analysis of the deposited data

How the results depend on the processing

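Of the numbers of members called, which are 2, 3, 1 and 1 of 9 for infusion in the wild type and knockout on plain water and then on salt, the mean of a gene's probes moved none of 17 by over 1.5 times, nor did the replicate block. Each member had 1 probe, so averaging probes could not change the members' own values. The replicate numbers did not pair the arrays (correlations of -0.449 to 0.453), and with the replicate block Ier2 between genotypes on salt was lost (-0.63, adjusted p 0.0589 by limma), which left 2 of 3 calls there. With infusion in the wild type on plain water, 1 member was called with normexp, without a filter, with probes well above background on all arrays, with slide as a random block and in a fit of the compared groups, 2 other members with slide as a fixed block (Egr1 and Fosb), and 0 to 3 when arrays were left out. In the knockout on plain water the count was 1 with probes well above background on all arrays (36.8% of all genes). It was 5 with slide as a fixed block (42.8% of all genes) and 5 within slide 1 (43.3%), and 1 to 3 when arrays were left out. In the wild type on salt it was 0 with probes well above background on all arrays (38.6% of all genes). It was 2 with slide as a fixed block (25.6%), 2 within slide 3 (28.8%), and 1 to 2 when arrays were left out. In the knockout on salt it was 0 with probes well above background on all arrays (29.9% of all genes). It was 6 in a fit of the compared groups (32.1% of all genes). With slide as a fixed block it was 1, Fosb in place of Fosl1 (36.6%), and it was 0 to 1 when arrays were left out. The filter on all arrays removes Fosl1 and Junb by construction; for the rest the cause was not tested. Between genotypes, controls gave 2 with normexp (44.2% of all genes) and 0 with slide as a random block (8.45%), and 0 to 1 when arrays were left out. On salt it was 1 without a filter (25.5%), 0 with the random block (8.82%), and 0 to 1 when arrays were left out. With salt and infusion it was 4 with normexp (50.2% of all genes) and 1 after quantile normalization (25.4%). It was also 1 with the authors' values (25.3%) and in a fit of the compared groups (21.9%), and 1 to 2 when arrays were left out. Slide as a fixed block turned 0 calls into 1 for salt during infusion in the knockout (1.15% of all genes). It did so too for the genotype difference of infusion on plain water (0.196%) and on salt (8.37%), and the salt difference of infusion in the knockout (0.634%). For the genotype difference of salt during infusion it turned 0 into 2 (0.179%). That block is set by the 2 groups that span slides. The fixed block reversed Egr2 in the wild type on plain water to -0.16 (adjusted p 0.94). Fosl1 stayed higher and called under all 16 alternatives for the knockout on plain water and the wild type on salt. Normexp moved the median of all genes from 0.05 to -0.05 for the genotype difference of salt during infusion; the other scalings and comparisons moved it by 0.1 or less. A fit without 1 array assumes that the arrays left vary like the other groups. Fosl1 without infusion and Egr3 are limited by signal over background.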
